A study of Homo sapiens with 6 samples.

Results

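The 8 genes described here encode peptidases that sit at the cell surface, and they were taken by name: MME, ANPEP, DPP4, FAP, ENPEP, ECE1, CPM and CPD. The deposited table held 27 probe sets whose annotation names exactly 1 of these genes, of 49293 probe sets in all. The genes were chosen with the difference between the groups compared here already known, so their own levels and differences are given as a description, with no p-value. Counts of them past a threshold stand beside the share of all genes, and nothing is read from those counts. Every sample is a tumor grown for 4 weeks in a nude mouse from CRL-5889, an established human lung squamous carcinoma line. In 3 tumors the implanted cells had been transfected with the TRA2B-DNAH5 fusion, a joined transcript of a splicing regulator gene and a dynein heavy chain gene. The cells of the other 3 tumors had received vector. The labels name neither the promoter of the construct nor the number of clones, and they do not tie a tumor to a mouse.

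Surface peptidases are ectoenzymes: their active site faces outward, where they trim or destroy peptide hormones and chemokines before these reach a receptor. MME (neprilysin, CD10) and ECE1 are zinc endopeptidases of one family. MME degrades peptides such as enkephalins, substance P and natriuretic peptides, and ECE1 makes active endothelin from its precursor. ANPEP (CD13) and ENPEP are zinc aminopeptidases that remove residues from the amino end. DPP4 (CD26) and FAP are related serine peptidases that cut after proline, and FAP is known as a marker of activated stromal fibroblasts. CPM and CPD are carboxypeptidases that remove basic residues from the carboxyl end.

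RefSeq promoter windows (GRCh38.p14, 250 bases before to 50 after an annotated start) were found for 7 of the 8 genes, all but FAP. The first window listed is shown for the 3 genes among them whose brightest probe set separated the groups, so that their start regions can be set side by side. Capitals mark the GC box GGGCGG on either strand, and each run reads 5′ to 3′ along the gene.

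MME, chr3:155079422-155079721, plus strand: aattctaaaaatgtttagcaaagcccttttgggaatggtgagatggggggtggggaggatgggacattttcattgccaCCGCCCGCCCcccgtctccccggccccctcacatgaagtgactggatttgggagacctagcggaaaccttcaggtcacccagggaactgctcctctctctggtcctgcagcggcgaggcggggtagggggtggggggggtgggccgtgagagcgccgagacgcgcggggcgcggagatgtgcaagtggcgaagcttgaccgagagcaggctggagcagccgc
ANPEP, chr15:89814803-89815102, minus strand: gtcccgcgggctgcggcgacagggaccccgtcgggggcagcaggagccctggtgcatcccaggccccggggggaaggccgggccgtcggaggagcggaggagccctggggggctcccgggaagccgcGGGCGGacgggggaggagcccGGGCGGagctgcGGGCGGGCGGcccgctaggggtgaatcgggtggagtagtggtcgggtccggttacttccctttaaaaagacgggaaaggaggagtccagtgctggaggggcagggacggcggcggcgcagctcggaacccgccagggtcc
CPM, chr12:68933150-68933449, minus strand: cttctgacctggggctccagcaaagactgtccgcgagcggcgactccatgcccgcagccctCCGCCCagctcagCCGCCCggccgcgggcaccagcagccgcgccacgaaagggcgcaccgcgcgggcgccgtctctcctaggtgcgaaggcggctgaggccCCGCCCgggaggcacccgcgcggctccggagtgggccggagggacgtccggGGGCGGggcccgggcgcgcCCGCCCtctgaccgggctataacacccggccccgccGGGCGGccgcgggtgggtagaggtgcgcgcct

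The window of MME held 2 GC boxes, that of ANPEP 4 and that of CPM 6, and neighbouring boxes overlap in MME and ANPEP. Of all 35116 windows of this length, 45% held a GC box. The AP-1 motif TGANTCA, searched on both strands, was in none of these 3 windows and in 7.71% of all windows. TATAAA was in none of them and in 11.5% of all, and CCAAT was in none of them and in 34.6% of all. GC content was 63.3% for MME, 75% for ANPEP and 78.7% for CPM. RefSeq lists 4 windows for MME, 2 for ANPEP and 3 for CPM, and the arrays do not tell which start was used. The other windows differ: the last one listed for each of these genes held 0 GC boxes. A later window of MME and the last of CPM each held 1 CCAAT box. A match is a description of the letters only.

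The arrays gave log2 probe set values with medians from 6.27 to 6.39. Precision is limited by there being only 3 arrays in a group. Vector tumor 1 stood apart on the first principal component, with a score of 30.1 against -8.58 to -3.68 in the other 5, so the differences of the 8 genes are also given without it. Levels below 4.94, the 30th percentile of all probe set means, are called dim here, and genes whose brightest probe set was dim were not tested. In the limma fit with Benjamini-Hochberg adjustment over 13694 genes, 0.073% passed an adjusted p of 0.05. Of the markers of the labelled cell type, SOX2 was well measured (8.82 in fusion and 9.65 in vector tumors). KRT14 (5.71 and 5.70) and KRT5 (5.06 and 5.19) lay little above the dim level, and DSG3 was dim. Among general epithelial markers KRT18 stood at 8.55 and 8.57, and EPCAM and CDH1 were dim.

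MME was higher in every fusion tumor than in any vector tumor. Its brightest probe set read 10.79, 10.21 and 10.61 in the fusion tumors. The vector tumors read 8.79, 9.49 and 9.25 (here and later, values of a group are in the order of tumor 1, 2 and 3). The lowest fusion value belonged to tumor 2 and the lowest vector value to tumor 1. The means were 10.54 ± 0.30 and 9.18 ± 0.36 (SD, n = 3 each), a log2 difference of 1.36 (SE 0.20) or 2.57-fold, the 6th highest of the 13694 tested genes. Without vector tumor 1 the difference was 1.17. In whole tumors, more or fewer cells of a type and more or less RNA per cell cannot be told apart, and the share of signal that came from mouse cells was not measured.

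All 5 probe sets of MME separated the groups, with log2 differences from 0.57 to 1.71. The widest difference came from a probe set with 8.28, 8.41 and 8.57 in fusion tumors and 5.98, 7.22 and 6.93 in vector tumors. There vector tumor 1 was the low point, and the vector SD was 0.65 against 0.14 in fusion tumors. Another 2 bright probe sets gave 1.30 and 1.35. The narrowest difference belonged to the 1 dim probe set, which read 4.46, 4.10 and 4.03 against 3.42, 3.79 and 3.65. A dim level can understate a difference, and whether it did so here was not tested.

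**Figure D1:**
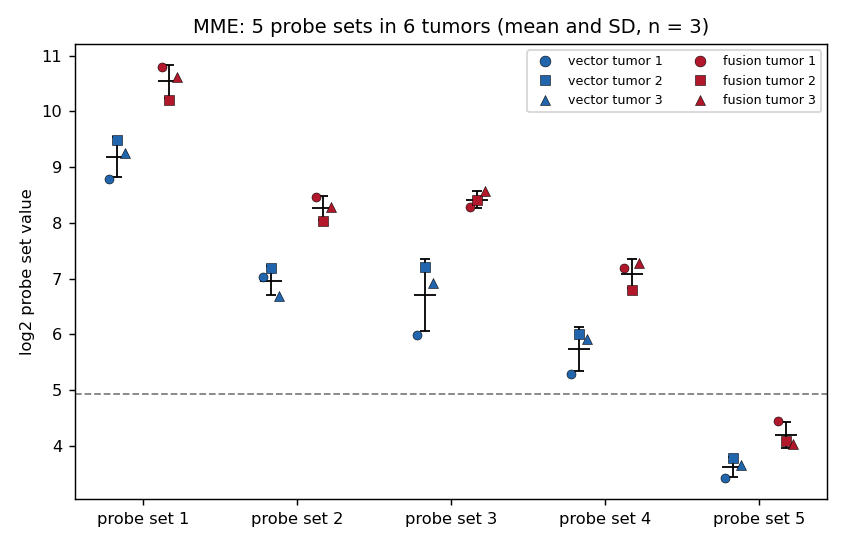
Log2 values of the 5 MME probe sets (x axis, ordered from the brightest) in each tumor, with the group mean and SD (n = 3). The dashed line is the dim level of 4.94. In all 5 probe sets the fusion tumors lie above the vector tumors, by 0.57 to 1.71 between group means.

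ECE1, which belongs to the neprilysin family too, had a small difference. Its brightest probe set read 8.93, 8.72 and 8.64 in fusion tumors and 8.68, 8.52 and 8.51 in vector tumors. The groups overlapped, because vector tumor 1 lay above fusion tumor 3. The means were 8.76 ± 0.15 and 8.57 ± 0.098 (SD, n = 3 each), a log2 difference of 0.19 (SE 0.11). All 5 probe sets of ECE1 had a difference above 0, from 0.14 to 0.39, and 2 of them separated the groups. Of these, 1 is of a type whose probes can also match other sequences. Without vector tumor 1 the difference of the brightest probe set was 0.25 and the groups no longer overlapped.

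The serine peptidase FAP was higher in all fusion tumors. Its single probe set read 7.37, 7.16 and 7.11 in fusion tumors and 6.52, 6.47 and 5.92 in vector tumors. Vector tumor 3 was the lowest, and the gap between the groups lay between 6.52 and 7.11. The means were 7.21 ± 0.14 and 6.31 ± 0.33 (SD, n = 3 each), a log2 difference of 0.91 (SE 0.16) or 1.88-fold. It was the 20th highest difference among tested genes and stood at 1.02 without vector tumor 1.

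DPP4, the relative of FAP, was dim in all tumors and was not tested. The brighter of its 2 probe sets read 4.21, 4.11 and 4.31 in fusion tumors and 3.90, 3.98 and 4.22 in vector tumors, and the groups overlapped. Their log2 difference was 0.17, and 0.11 without vector tumor 1. The other probe set gave -0.026. In the RefSeq gene order DPP4 and FAP are neighbours on chromosome 2, with GCG, the glucagon precursor gene, between them among genes with a probe set. GCG was itself dim, at 4.80, 4.46 and 4.74 in fusion tumors and 4.13, 4.04 and 3.88 in vector tumors, and these groups did not overlap. IFIH1, an RNA sensor gene on the far side of FAP, had a log2 difference of 0.036. These neighbours were chosen by position.

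ANPEP was measured little above the dim level. Its brighter probe set read 5.86, 5.73 and 5.68 in fusion tumors and 5.66, 5.26 and 4.82 in vector tumors. The groups nearly met, with vector tumor 1 at 5.66 and fusion tumor 3 at 5.68, and the vector tumors were spread widely. The means were 5.76 ± 0.094 and 5.24 ± 0.42 (SD, n = 3 each), a log2 difference of 0.51 (SE 0.19) or 1.43-fold. Its difference was 0.72 without vector tumor 1 and 0.30 without vector tumor 3. With quantile normalization or median centring of the arrays the ANPEP groups overlapped. The second probe set was dim and gave 0.26.

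ENPEP, the aminopeptidase that acts on angiotensin II, was dim in all 3 probe sets. Its brightest read 3.37, 3.37 and 3.55 in fusion tumors and 3.30, 3.51 and 3.58 in vector tumors, with overlapping groups. The differences of the 3 probe sets ran from -0.12 to -0.031, and the gene was not tested. Without vector tumor 1 the brightest gave -0.11. The genes on either side of ENPEP on chromosome 4 with a probe set, ELOVL6 and FAM241A, had log2 differences of -0.38 and 1.10.

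The carboxypeptidase CPM was higher in fusion tumors, but its probe sets did not all separate the groups. The brightest read 7.48, 6.88 and 7.34 in fusion tumors and 6.38, 6.64 and 6.35 in vector tumors. Fusion tumor 2 lay closest to the vector group. The means were 7.23 ± 0.32 and 6.46 ± 0.16 (SD, n = 3 each), a log2 difference of 0.78 (SE 0.16) or 1.71-fold, the 40th highest among tested genes. A second bright probe set read 6.57, 6.12 and 6.87 against 5.90, 6.38 and 5.97, and there fusion tumor 2 fell below vector tumor 2. The 5 probe sets gave differences from 0.035 to 0.78, and 3 separated the groups, of which 1 was dim. Another of those 3 is of the type whose probes can also match other sequences. The mean of all 5 gave 0.42, and the brightest gave 0.74 without vector tumor 1. MDM2 and CPSF6, the genes on either side of CPM on chromosome 12, had log2 differences of 0.026 and -0.038.

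CPD, a carboxypeptidase that cycles between the surface and the Golgi, was nearly level. Its brightest probe set read 9.30, 9.59 and 9.63 in fusion tumors and 9.11, 9.56 and 9.66 in vector tumors. Tumor 1 was the lowest in both groups. The means were 9.51 ± 0.18 and 9.44 ± 0.29 (SD, n = 3 each), a log2 difference of 0.062 (SE 0.16), which turned to -0.10 without vector tumor 1. Its 4 probe sets gave 0.062 to 0.13, and 1 of them separated the groups.

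**Figure D2:**
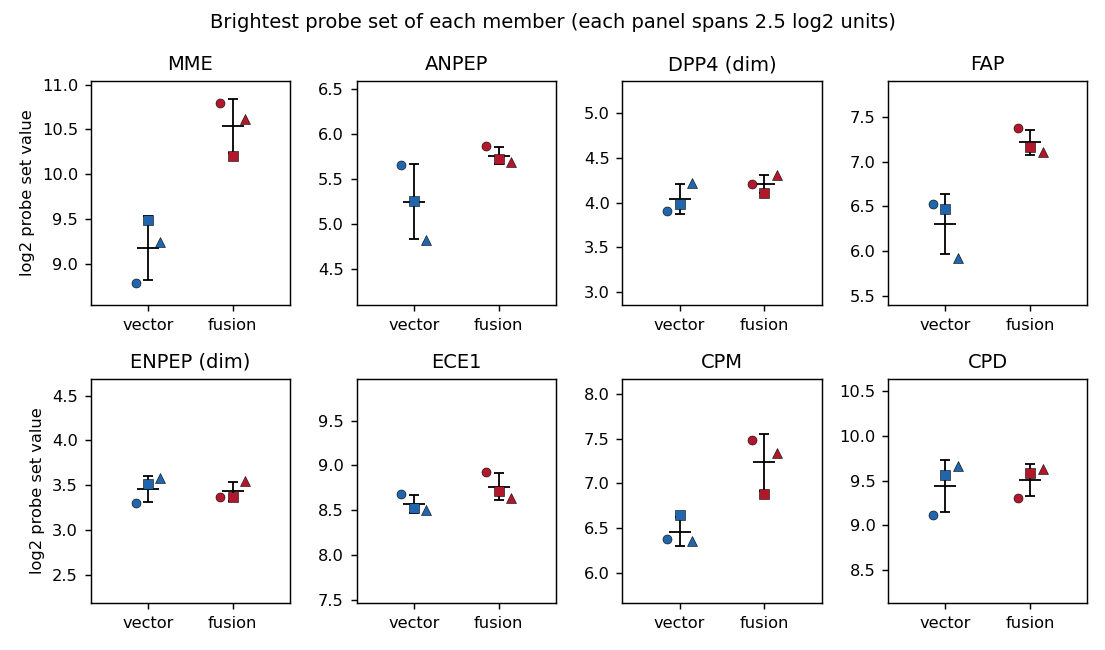
Log2 value of the brightest probe set of each gene in the vector (blue) and fusion (red) tumors, with the mean and SD (n = 3); circles, squares and triangles are tumors 1, 2 and 3. Every panel spans the same width on the log2 axis, and levels are not compared between genes. MME, FAP and CPM show the widest gaps, with differences of 1.36, 0.91 and 0.78, while CPD (0.062) and the dim ENPEP (-0.031) are level.

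Of the 8 genes, 6 passed the filter on dim values, and 0 of these 6 passed the limma threshold, beside 0.073% of all tested genes. Every fusion value lay above every vector value for 4 of the 6 (MME, ANPEP, FAP and CPM), beside 5.94% of all tested genes, and for 5 of 6 without vector tumor 1, beside 12.1%. Counted by probe set, 14 of 27 separated the groups with fusion higher and 0 with fusion lower. Over all 44988 probe sets naming 1 gene these shares were 5.99% and 4.95%. Probe sets of 1 gene are not independent readings: of the 14, 5 name MME and 3 name CPM. Of the 14, 3 were dim. 

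**Figure D3:**
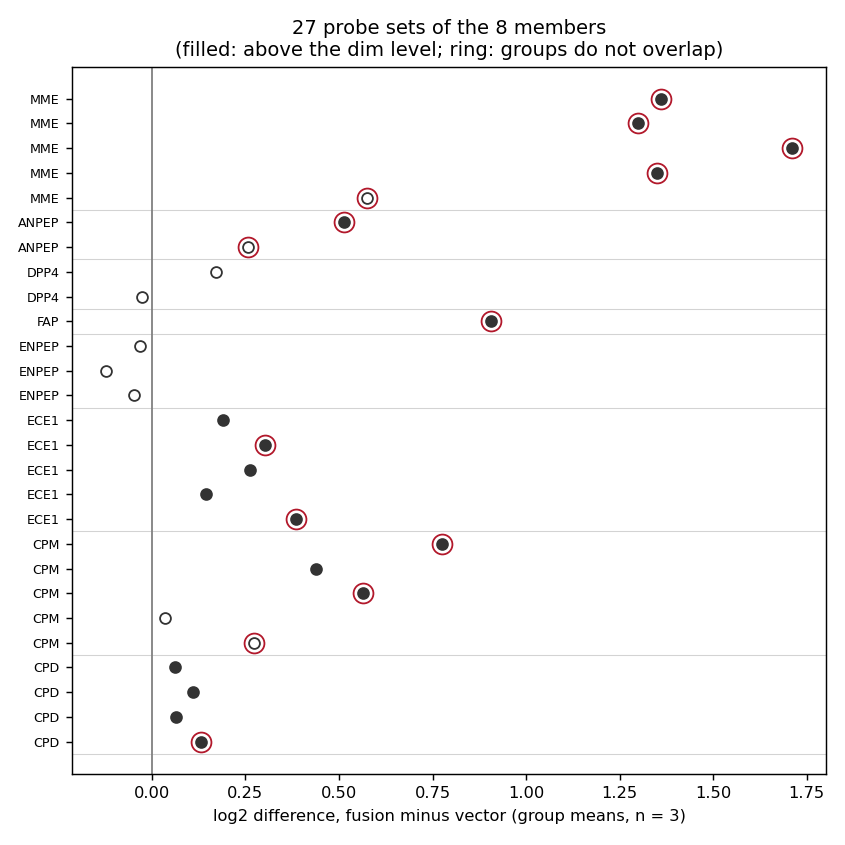
Log2 difference between group means, fusion minus vector, for each of the 27 probe sets, grouped by gene. Filled points lie above the dim level, and red rings mark the 14 probe sets whose groups do not overlap. MME spans 0.57 to 1.71 and CPD 0.062 to 0.13.

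The genes closest in pattern were found for the 4 members whose range over the 6 tumors was at least 1 log2 unit. Likeness is the root mean square difference between profiles after each is centred on its own mean over 6 tumors. Nearest to MME were TIAM1 (0.20), CTSL (0.29) and DAW1 (0.29). TIAM1, an activator of the GTPase RAC, read 9.23, 8.19 and 8.62 in fusion tumors and 7.13, 7.44 and 7.23 in vector tumors, with a log2 difference of 1.42. CTSL, the lysosomal protease cathepsin L, had a difference of 0.92, and DAW1, a dynein arm assembly factor, one of 1.21.

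For FAP the nearest were IFT57 (0.086), VEGFC (0.10) and IL31RA (0.17). IFT57, a transport protein of cilia, differed by 0.90 and the lymphatic growth factor VEGFC by 0.72. For CPM they were TIMP1 (0.11), LXN (0.12) and IL31RA (0.14), so IL31RA, a cytokine receptor gene with a difference of 0.83, was near both. For ANPEP they were TMEM158 (0.059), EPAS1 (0.071) and RCAN1 (0.075), with differences of 0.45, 0.53 and 0.40. The groups overlapped for TMEM158 and RCAN1. EPAS1 encodes the hypoxia factor HIF-2 alpha and RCAN1 an inhibitor of calcineurin. All nearest genes were drawn from the 13694 tested, so close matches over 6 tumors are a description. They were picked by likeness to a member, so a group difference like that of the member comes with the choice.

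Differences were small in a wider set of peptidases. Of 45 relatives and other peptide-cutting enzymes, 39 had a probe set and 28 were tested. By limma 0 passed over all genes, with 1 higher and 0 lower at an unadjusted p below 0.05. Their median log2 difference was -0.041 (12 above 0, 16 below), and that of all tested genes was 0.0020. All differences lay between -0.22 and 0.31. The groups did not overlap for 3 of the 28 with fusion higher (GGT7, THOP1 and DPP8), beside 5.94% of all tested genes. With fusion lower they did not overlap for 2 (PREP and RNPEP), beside 4.95% of all probe sets naming 1 gene, dim ones included. The shares for higher and lower thus rest on different bases. The 1 at an unadjusted p below 0.05 was GGT7, of the gamma-glutamyltransferase family, with 6.04, 6.11 and 5.99 in fusion tumors and 5.59, 5.84 and 5.89 in vector tumors. Its difference was 0.27 (SE 0.11, limma adjusted p = 0.780).

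The cytosolic prolyl peptidase PREP had a log2 difference of -0.22 (SE 0.10, limma adjusted p = 0.882), and all its fusion values lay below its vector values. DPEP3, a membrane dipeptidase, had 0.31 (SE 0.14, limma adjusted p = 0.882), with overlapping groups. THOP1, a soluble endopeptidase of neuropeptides, had 0.15 (SE 0.086, limma adjusted p = 0.956). Closer relatives gave small values. In the neprilysin family ECE2 stood at -0.14, PHEX at -0.057 and ECEL1 at 0.059, with MMEL1 and KEL dim. Among aminopeptidases ERAP1 stood at -0.050, NPEPPS at -0.051 and RNPEP at -0.12. The cytosolic relatives of DPP4 and FAP, DPP8 and DPP9, stood at 0.20 and 0.028, and the carboxypeptidase CPE at -0.12.

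Peptides that such enzymes process, and their receptors, were mostly dim. Of 35 genes 33 had a probe set and 16 were tested. By limma 0 passed over all genes and 0 had an unadjusted p below 0.05. Their median log2 difference was 0.016 (9 above 0, 7 below). The widest belonged to NTSR1, the neurotensin receptor, with 7.58, 5.62 and 6.67 in fusion tumors and 5.24, 5.93 and 5.97 in vector tumors. These groups overlapped, since fusion tumor 2 lay below vector tumors 2 and 3, and the difference was 0.91 (SE 0.43, limma adjusted p = 0.896). BDKRB1, a bradykinin receptor, stood at -0.24 (limma adjusted p = 0.916), the natriuretic peptide gene NPPB at 0.21 (0.962) and TACR1, the substance P receptor, at -0.19 (0.962). The endothelin genes EDN1, EDN2 and EDN3, whose products ECE1 can activate, stood at 0.020, -0.088 and -0.0035. TAC1 and PENK, precursors of the MME substrates substance P and enkephalin, were dim. The brightest gene of the list was APP, with means of 11.97 in fusion and 12.03 in vector tumors and a log2 difference of -0.065.

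FAP, ANPEP, DPP4 and MME also mark fibroblasts, so fibroblast markers were measured beside them. Of 9 such markers 7 were tested and 0 passed by limma, with 3 higher at an unadjusted p below 0.05. Of the 7, 6 were above 0, with a median log2 difference of 0.24. The mean log2 level of all 9 ran from 6.09 to 6.17 in fusion tumors and from 5.86 to 6.02 in vector tumors. Their summed level on the linear scale ran from 2355 to 2622 and from 1734 to 2181, and THY1 alone made up 75.8% to 79.6% of it. Without THY1 the sums were 528 to 587 and 412 to 506. COL1A1, a fibrillar collagen chain, read 8.05, 7.88 and 7.89 against 7.03, 7.81 and 7.03 (limma adjusted p = 0.593). The surface protein THY1 differed by 0.36 (limma adjusted p = 0.641) and the collagen chain COL1A2 by 0.24 (0.708). DCN and LUM, proteoglycans of fibroblasts, were dim in both groups. PDGFRB differed by 0.019, COL3A1 by 0.20, POSTN by 0.27 and ACTA2 by -0.13, all with overlapping groups. The part of such cells in the levels of FAP and the other genes was not tested. The tumors grew in mice, and how much marker signal came from mouse cells or from the human line was not measured.

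Of 5 leukocyte markers PTPRC, CD14 and LYZ were dim and 2 were tested. The mean log2 level of all 5 was 5.02 to 5.09 in fusion and 4.92 to 4.99 in vector tumors. Their summed levels were 408 to 502 and 288 to 302, of which CD68 made up 68.6% to 84.5%, and without CD68 they were 77.5 to 91.1 and 81.0 to 93.5. CD68 differed by 0.80 (limma adjusted p = 0.112) and ITGAM by 0.020. Of 5 endothelial markers 4 were tested, with a median of 0.0091, sums of 280 to 295 in fusion and 266 to 302 in vector tumors, and TEK dim. Squamous markers (3 tested of 4 with a probe set) had mean log2 levels of 5.96 to 6.17 in fusion and 6.18 to 6.44 in vector tumors. They summed to 520 to 604 and 726 to 1213, of which SOX2 made up 80.1% to 90.3%, and without SOX2 to 103 to 120 in fusion and 102 to 120 in vector tumors. SOX2 differed by -0.83 (limma adjusted p = 0.369), KRT14 by 0.016, KRT5 by -0.13 and the dim DSG3 by 0.048. The sums of the 5 epithelial markers, 3 of them tested, were 458 to 551 and 473 to 504. Their part in the levels of the peptidases was not tested. For all these markers too, the share of signal from mouse cells was not measured.

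**Figure D4:**
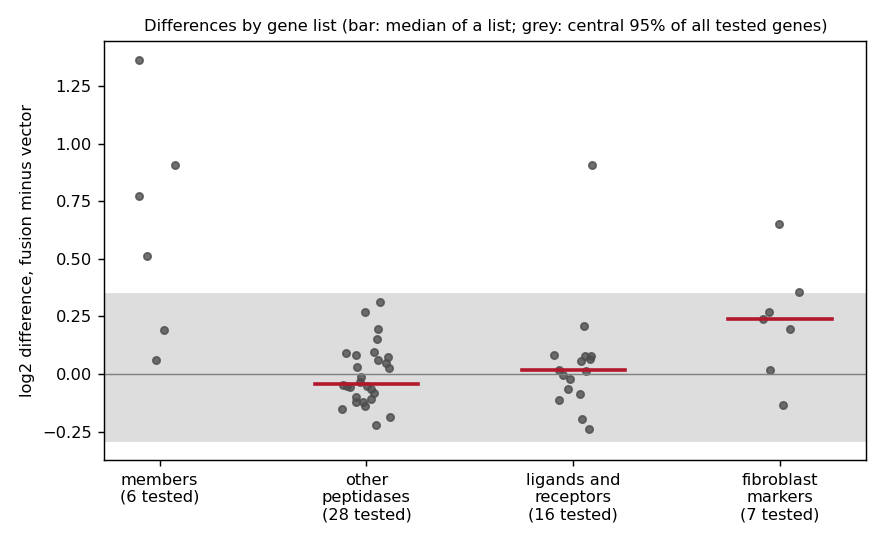
Log2 difference, fusion minus vector, of each tested gene among the 6 tested members, the other peptidases (28), the peptide ligands and receptors (16) and the fibroblast markers (7); red bars are list medians of -0.041, 0.016 and 0.24, and the grey band, from -0.29 to 0.35, holds the central 95% of all tested genes. Among the members, MME, FAP, CPM and ANPEP lie above the band, and ECE1 (0.19) and CPD (0.062) lie within it. The members were chosen with this contrast known, so nothing is read from their place. NTSR1 (0.91), COL1A1 (0.65) and THY1 (0.36) of the ligand and fibroblast lists also lie above the band. All 28 other peptidases lie within it.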

How the data were processed

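Biotin-labelled total RNA of 6 tumors was measured on Affymetrix arrays, 1 for each, per the labels' protocols. The deposited values are log2 levels of probe sets, in 1 table for the series. No unit is stated with the table, so its log2 scale rests on the range of the values, and how background was corrected and arrays were normalized is not given in the sources used here. Groups and replicate numbers came from the sample titles.

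Gene names came from the platform annotation: 44988 probe sets name 1 gene, 1832 several and 2473 were unnamed here. Each of 18132 genes was represented by its brightest probe set (highest mean over 6 arrays), and 4438 genes with a mean below the 30th percentile were left out. The test of fusion against vector was a two-sided moderated fit by lmFit and eBayes of limma 3.58.1 (R 4.3.3), with Benjamini-Hochberg adjustment over 13694 genes and a threshold of 0.05. The labels call the tumors biological replicates, and the p-values rest on the spread between tumors, moderated over genes. The p-values and SE tell nothing of variation between separately transfected cells, as the number of clones is not named. The smallest p that an exact permutation test can reach with 3 tumors in both groups is 0.1, so none was run. The script was tested on simulated data.

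Members and lists were chosen with earlier results of these data known. Named were all members, up to 4 genes with the smallest p from both wider lists, any gene there past the threshold, and for each tested member with a range of at least 1 log2 unit the 3 nearest genes by root mean square difference. Neighbours were taken by position, and other relatives and markers named were chosen after their values were seen. Alternatives varied the dim filter, which probe set stands for a gene, the scaling of arrays (quantiles or medians), the variance model, weights on arrays, a replicate block and the tumors left out. Promoter windows are RefSeq's. Figures were drawn with matplotlib 3.10.9 in Python 3.11.15.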

Additional observations from a re-analysis of the deposited data

How the results depend on the processing

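Of 15 alternatives, 11 changed the log2 difference of MME; the filters, the variance model and the replicate block cannot move a mean difference. It ran from 1.17 to 1.53 when 1 tumor was left out and was 1.71 with the most variable probe set. FAP ran from 0.72 to 1.02, ANPEP from 0.30 to 0.72, CPM from 0.42 to 0.95, ECE1 from 0.11 to 0.39, CPD from -0.10 to 0.17, DPP4 from -0.026 to 0.26 and ENPEP from -0.19 to 0.00030. The count of members past the limma threshold, an addition made after seeing the data, was 0 with all tumors, 1 with the mean of all probe sets (MME), 3 with array weights (MME, FAP and CPM) and 0 to 1 with 1 tumor left out (MME, without vector tumor 1). Nothing is read from it, since the genes were chosen on this contrast. The count of tested members whose fusion values all lay above their vector values, also added then, ran from 3 to 5. The share of all tested genes with such values ran from 4.32% (median centring) to 12.1% (without vector tumor 1). Over all genes limma called 10. It called 1 with the filter at the 50th percentile, 16 with the mean of all probe sets, 6 with the most variable probe set and 140 with array weights. Leaving out 1 tumor gave 0 to 37 genes. The 0 came without fusion tumor 1, with 667 genes at an unadjusted p below 0.05. The 37, of 13676, came without vector tumor 1, and each other case gave 3. The cause was not tested. Marker genes called were 2 with array weights (CD68 and SOX2), 0 to 1 with 1 tumor left out (SOX2, without vector tumor 1) and 0 otherwise. The other peptidases and the peptide ligands and receptors had 0 calls under all 15 alternatives.

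With the replicate number as a block, limma called 8 genes and 0 members. Same-numbered tumors had correlations of deviations of 0.097, 0.17 and 0.051, and the highest between other tumors of the groups was -0.018. Each tumor thus correlated best with its own number. The labels state no pairing, so the block was used as an alternative only. The block changed no count of members, peptidases, ligands or markers.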
